A study of Mus musculus with 6 samples.

Results

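The 9 genes described here encode the enzymes and regulators of polyamine metabolism, and were taken from the 54532 genes of the deposited table by their gene symbols: Odc1, Amd1, Srm, Sms, Azin1, Oaz1, Oaz2, Sat1 and Paox. They were measured by RNA-seq of poly-A RNA in primary bone-marrow-derived macrophages (BMDMs), which were grown from the marrow of C57BL/6 mice in medium conditioned by L929 cells. The 6 libraries form 3 groups of 2, namely untreated BMDMs, BMDMs given lipopolysaccharide (LPS, 100 ng/ml) for 2 h, and BMDMs given metformin (5 mM) for 6 h and then LPS (100 ng/ml) for 2 h (Met + LPS). LPS, a cell wall molecule of Gram-negative bacteria, activates macrophages through the receptor TLR4, and metformin is a biguanide drug used against type 2 diabetes. No group received metformin alone, and the labels do not say whether the libraries of a group came from separate mice, so the spread between them may be technical.

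Polyamines are small, positively charged molecules that bind nucleic acids and support translation. Ornithine decarboxylase makes putrescine from ornithine, and spermidine and spermine are then built by adding aminopropyl groups that come from decarboxylated S-adenosylmethionine. The pool is controlled by antizymes, which bind ornithine decarboxylase and send it to the proteasome, by antizyme inhibitors, which capture antizymes, and by acetylation followed by oxidation or export. In macrophages, ornithine is also a product of arginase, so that polyamine synthesis competes with nitric oxide synthesis for arginine.

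The values are TPM, in which reads are divided by gene length and every library is scaled to a common total, so that levels of different genes can be compared. Reads recovered from them summed to between 25457016 and 30762755 per library. All 7 macrophage markers examined were present. Their summed TPM, most of it Lyz2, lay between 43710 and 45600 in untreated, 34526 and 35264 in LPS and 28763 and 28884 in Met + LPS libraries. In TPM as deposited it thus fell across the groups without overlap. Markers of B cells and fibroblasts summed to at most 0.515 and 0.715 TPM, and 2 of the 3 erythroid markers were at 0 in every library. The mast cell list summed to between 20.6 and 21.1 TPM in untreated, 8.00 and 8.18 in LPS and 23.2 and 24.4 in Met + LPS libraries, nearly all of it Kit, whereas its more restricted marker Cpa3 did not exceed 1.56 TPM. The T cell list held 1 gene over the filter, Cd4, with between 2.66 and 6.78 TPM, the neutrophil list summed to between 6.17 and 12.2 TPM and the dendritic cell list to between 0.215 and 1.57 TPM. The part of these differences in the results was not tested, and fewer cells of a type and less RNA per cell cannot be told apart in such libraries. Il1b was at 2.76 and 4.17 TPM in the untreated and between 1793 and 3207 TPM in the other libraries, and this cytokine gene is a standard sign of LPS stimulation. The median log2 fold change of all tested genes was -0.48 between LPS and untreated BMDMs and -0.03 between Met + LPS and LPS. Rescaling each library by the median ratio over genes moved these medians to -0.01 and -0.02. On that scale Lyz2 had means of 26891 TPM in untreated, 29935 in LPS and 24049 in Met + LPS libraries. Its fall with LPS was therefore not seen after rescaling. Of the 7 macrophage markers only Mertk was then lower with LPS, at 24.0 against 40.7 TPM. Rescaling did not remove the decline with metformin, where every marker except Cd68 still had a lower mean. Adding metformin took the rescaled mean of Fcgr1 from 184 to 84.0 TPM and that of Mertk from 24.0 to 15.5. Adgre1 went from 1915 to 1534 and Csf1r, which moved little, from 1478 to 1422. The reason for this decline was not tested. Because rescaling moved the median of the first comparison, directions in it are given on both scales.

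Every one of the 9 genes was expressed, and all of them passed the filter of 1 TPM in at least 2 libraries. In untreated BMDMs the order by mean TPM was Sat1, Oaz1, Azin1, Srm, Odc1, Oaz2, Amd1, Sms and Paox, from 362 ± 11.2 TPM to 8.91 ± 0.473 TPM (SD, n = 2). Odc1, Oaz2 and Amd1 lay within 29.2 to 31.4 TPM, and the libraries of neighbours in that order overlapped. After LPS, Odc1 stood above Srm, and Amd1 and Oaz2 overlapped. In Met + LPS libraries Azin1 stood above Oaz1 and no neighbours overlapped. Paox had the thinnest support, with 98 to 325 recovered reads per library, while the other 8 genes had between 370 and 13401.

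**Figure D1:**
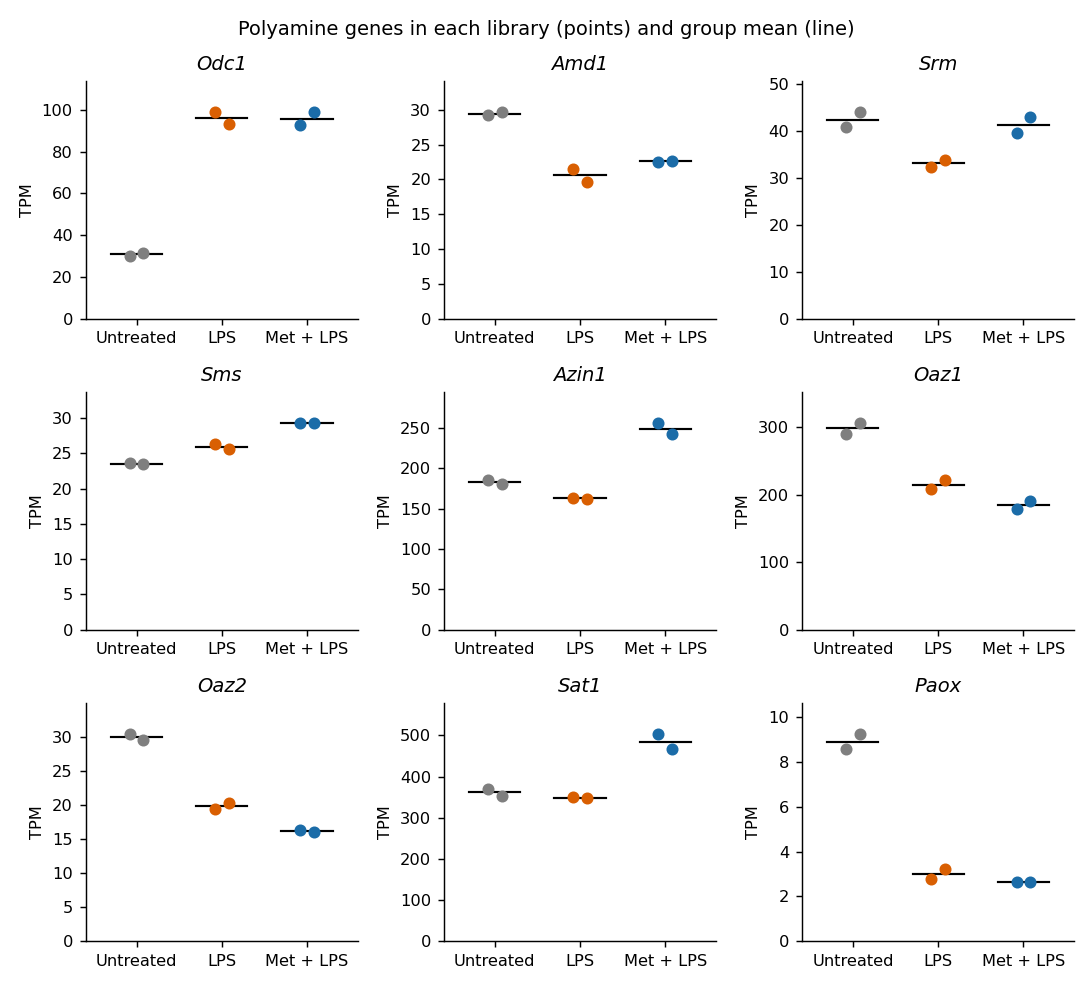
TPM of each of the 9 polyamine genes (y axes, linear and starting at 0) in the 2 libraries of each group (points), with the group mean as a line. Odc1 goes from about 30.8 TPM in untreated BMDMs to 96.2 after LPS and 95.8 with metformin before LPS, whereas Azin1 and Sat1 are highest in both Met + LPS libraries. The y axes differ between panels, and of the 6 falls called with LPS only that of Paox is still called after rescaling by median ratio.

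The first comparison asked how polyamine genes respond to LPS. Odc1, the first enzyme of the pathway, was 3.12 times its untreated level and Paox, an oxidase at its end, fell to 0.336 of its untreated level. The other genes moved less, by a log2 fold change of between -0.57 and 0.13. Of the 9 genes, 1 rose and 6 fell at an adjusted p under 0.01 in limma, against a background of 76.3% of all 12755 tested genes called, 16.2% higher and 60.1% lower. The median of the 9 was -0.35, above the -0.48 of all tested genes. After rescaling, 4 rose (Odc1, Azin1, Sat1 and Sms) and only Paox fell, against 58.3% of all genes called, 31% higher and 27.3% lower, so that Odc1 and Paox were the only genes of the 9 called in the same direction on both scales. The libraries of the 2 groups did not overlap for any of the 9 genes, as for 91.6% of all genes. At the study's fold cut-off, an absolute log2 fold change of 2, 6.08% of all genes passed and none of the 9, while after rescaling 6.2% passed and Odc1 was among them at 2.13. The study applied its cut-offs to DESeq2 fold changes of counts, whereas here they are applied to log2(TPM + 1).

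The second comparison asked what metformin before LPS changed relative to LPS alone. Azin1 and Sat1 rose by 52.7% and 39.1%, Srm rose by 24.8%, and Oaz2 fell. The Odc1 libraries with and without metformin overlapped. In limma, 3 of the 9 genes rose and 1 fell, against a background of 32.6% of all tested genes, 14.5% higher and 18% lower. The median of the 9 was 0.13, against -0.03 for all tested genes. The same 4 genes were called after rescaling, where the background was 33.1%, 15.9% higher and 17.2% lower. The libraries of the groups did not overlap for 8 of the 9 genes, all but Odc1, as for 73.8% of all genes. At the study's fold cut-off of 0.7, 8.28% of all genes passed and none of the 9, the largest absolute log2 fold change being 0.61. The comparisons share the LPS libraries, so their fold changes are not independent of each other.

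**Figure D2:**
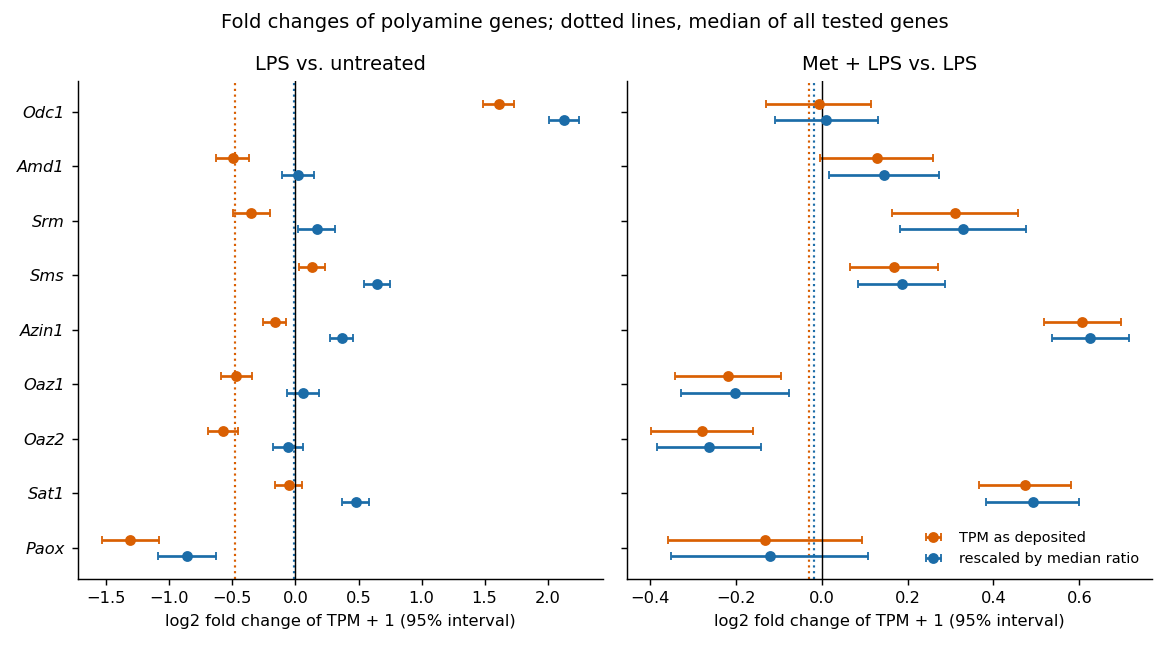
Log2 fold change of TPM + 1 (x axes) with its 95% interval from limma for each polyamine gene, for LPS vs. untreated (left) and Met + LPS vs. LPS (right), from TPM as deposited (orange) and after rescaling by median ratio (blue). Dotted lines mark the median of all tested genes. On the left the 2 scales differ by about the shift of that median, so that Amd1, Srm, Azin1, Oaz1 and Sat1 change sign, and on the right they nearly coincide, with Azin1 and Sat1 farthest above 0.

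Among the synthesis genes, Odc1 (ENSMUSG00000011179, GRCm38 chromosome 12, 17544794 to 17551505, plus strand) encodes ornithine decarboxylase, the rate-limiting enzyme that makes putrescine. It was at 30.2 and 31.4 TPM in untreated, 99.0 and 93.4 TPM in LPS and 92.6 and 99.0 TPM in Met + LPS libraries. All 4 LPS-stimulated libraries lay above both untreated libraries, with means of 3.12 and 3.11 times the untreated mean, and the LPS and Met + LPS libraries overlapped. Of the 31-base words of its exons 68.7% occur in no other gene, the rest mainly in unnamed gene models such as Gm7993 and Gm9115. The log2 fold change to LPS was 1.61 (SE 0.05, adjusted p = 5.1e-07 in limma) and 2.13 after rescaling, and it placed Odc1 at the 94.8th percentile of all tested genes. Between Met + LPS and LPS the log2 fold change was -0.01 (SE 0.05, adjusted p = 0.93), with a 95% interval from -0.13 to 0.12.

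The sequence upstream of Odc1 is shown because Odc1 had the largest increase with LPS among the 9 genes. It lies at chr12:17544623-17544793 on the plus strand of GRCm38.p6 and ends 1 base before the gene's first annotated exon. The run is printed from 5′ to 3′ with every GC box, a motif bound by Sp1-type factors with the letters GGGCGG on either strand, in capitals.
Odc1: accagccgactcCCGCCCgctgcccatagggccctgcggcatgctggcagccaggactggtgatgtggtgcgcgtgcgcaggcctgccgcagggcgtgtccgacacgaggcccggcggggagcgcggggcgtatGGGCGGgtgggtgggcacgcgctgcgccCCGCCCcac

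Promoters of 250 bases upstream of the start were given by RefSeq for 7 of the 9 genes, all but Azin1 and Srm. Paox and Sms have 2 starts each, which gives 9 windows. A GC box was found in 7 of the 9 windows, all but that of Oaz1 and 1 of Sms, against 32.7% of 32851 mouse promoters of the same length searched on both strands. The 2 windows of Paox overlap and share a GC box. By gene, 6 of the 7 had a GC box. The E-box CACGTG, a site class bound by Myc, was found in 1 of the 9, a window of Sms, against 6.02%. Of the other motifs searched, none was found in the 9 windows. These were TGATGNAA, the core of the amino acid response element that stress-activated ATF4 uses, which 3.45% of all promoters held. The cAMP response element was searched by its letters TGACGT, which 6.47% of all promoters held. For the AP-1 site TGANTCA and the TATA box TATAAA the shares of all promoters were 6.75% and 12.4%. These matches only describe the letters of the windows.

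Amd1 (ENSMUSG00000075232, chromosome 10, 40287458 to 40302186) encodes S-adenosylmethionine decarboxylase, which supplies the aminopropyl donor. It was at 29.2 and 29.7 TPM in untreated, 21.5 and 19.7 TPM in LPS and 22.5 and 22.7 TPM in Met + LPS libraries. Both LPS-stimulated groups were below the untreated libraries and the 2 Met + LPS libraries were just above the LPS libraries. Its log2 fold change to LPS was -0.50 (SE 0.05, adjusted p = 1.5e-04) in TPM as deposited but 0.02 (adjusted p = 0.783) after rescaling. With metformin it was 0.13 (SE 0.05, adjusted p = 0.0967, 95% interval from -0.00 to 0.26), which did not pass. Only 17.2% of the 31-base words of Amd1 exons occur in no other gene, since most are shared with Amd2 and with Amd pseudogenes, so its level depends on how the authors' counting treated shared reads.

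Srm (ENSMUSG00000006442, chromosome 4, 148591503 to 148594993) encodes spermidine synthase, and Sms (ENSMUSG00000071708, chromosome X, 157443855 to 157492287) encodes spermine synthase. Srm was at 40.9 and 44.1 TPM in untreated, 32.3 and 33.9 TPM in LPS and 39.6 and 43.0 TPM in Met + LPS libraries. The LPS libraries were the lowest and the Met + LPS libraries overlapped with the untreated ones. Sms was at 23.7 and 23.4 TPM in untreated, 26.3 and 25.6 TPM in LPS and 29.3 and 29.3 TPM in Met + LPS libraries. The 3 groups of Sms did not overlap and stood in that order, a few TPM apart.

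With LPS, Srm had a log2 fold change of -0.35 (SE 0.06, adjusted p = 0.00145 in limma) that turned to 0.17 (adjusted p = 0.0417) after rescaling. The call was lost without untreated replicate 2 (adjusted p = 0.0167) or LPS replicate 1 (adjusted p = 0.0119). Its rise with metformin was 0.31 (SE 0.06, adjusted p = 0.00611), and this call did not survive leaving out any single library, with adjusted p between 0.0116 and 0.0389. Sms had log2 fold changes of 0.13 (SE 0.04, adjusted p = 0.0222) with LPS and 0.17 (SE 0.04, adjusted p = 0.0171) with metformin, neither past the threshold, and the first became 0.65 (adjusted p = 1.7e-05) after rescaling. Among the 4 synthesis genes the ratio of Odc1 to Amd1 TPM, which does not depend on the scaling of libraries, was 1.03 and 1.06 in untreated, 4.60 and 4.74 in LPS and 4.12 and 4.36 in Met + LPS libraries. Odc1 thus made up 24.4% of the summed TPM of the 4 genes before LPS, 54.7% after LPS and 50.7% with metformin. Both the ratio and these shares rest in part on Amd1, whose level depends on how shared reads were counted.

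Of the antizyme system, Azin1 (ENSMUSG00000037458, chromosome 15, 38487427 to 38519266) encodes antizyme inhibitor 1, a homologue of ornithine decarboxylase without its activity that frees the enzyme from antizyme. Azin1 was at 185 and 181 TPM in untreated, 164 and 162 TPM in LPS and 256 and 242 TPM in Met + LPS libraries. Both Met + LPS libraries stood far above all others, which lay within 162 to 185 TPM. The log2 fold change with metformin was 0.61 (SE 0.04, adjusted p = 5.8e-05 in limma, 0.57 to 0.65 without any one library), at the 93.3rd percentile of all tested genes and the largest of the 9. It was 0.62 after rescaling. With LPS alone Azin1 was lower by a log2 fold change of -0.17 (SE 0.04, adjusted p = 0.00529), a call that was lost without any one of the 4 libraries compared (adjusted p between 0.0205 and 0.041) and that turned to 0.37 (adjusted p = 1.5e-04) after rescaling.

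Oaz1 (ENSMUSG00000035242, chromosome 10, 80826656 to 80829290) and Oaz2 (ENSMUSG00000040652, chromosome 9, 65668001 to 65690300) encode antizymes 1 and 2, which bind ornithine decarboxylase, promote its degradation and limit polyamine uptake. Their messages are read through a ribosomal frameshift that polyamines stimulate, a step that RNA levels do not show. The 30 bases around the frameshift site, from the GENCODE vM21 transcripts, are shown because this site is what the antizymes have in common; capitals mark the last codon of the first frame and the stop codon that is bypassed.
Oaz1: ctcggtggtgcTCCTGAtgtccctcaccca
Oaz2: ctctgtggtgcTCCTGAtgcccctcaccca
The sequences are identical at 28 of the 30 bases.

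Oaz1 was at 291 and 306 TPM in untreated, 208 and 222 TPM in LPS and 179 and 191 TPM in Met + LPS libraries. Oaz2 was at 30.4 and 29.6 TPM in untreated, 19.3 and 20.3 TPM in LPS and 16.4 and 16.0 TPM in Met + LPS libraries. In both genes the 3 groups did not overlap and were ordered untreated, LPS, Met + LPS from highest to lowest. With LPS their log2 fold changes were -0.47 and -0.57 (SE 0.05 each, adjusted p = 1.5e-04 and 4.6e-05 in limma), close to the median of all genes, and rescaling brought them to 0.06 and -0.06 (adjusted p = 0.321 and 0.33). With metformin, Oaz2 fell by 0.28 on the log2 scale (SE 0.05, adjusted p = 0.00414) and Oaz1 had a log2 fold change of -0.22 (SE 0.05, adjusted p = 0.0132). The Oaz2 call was lost without any one library (adjusted p between 0.0113 and 0.0258), while Oaz1 passed at 0.00077 with voom on the recovered reads. Of the 31-base words of Oaz1, 76% are its own, and the processed copy Oaz1-ps was listed at between 3.28 and 6.91 TPM.

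Azin1 and Odc1 were also set against the antizymes within each library, where the scaling cancels. Per 100 TPM of Oaz1 and Oaz2 together, Azin1 was at 57.7 and 53.9 TPM in untreated, 72.0 and 66.9 TPM in LPS and 131 and 117 TPM in Met + LPS libraries. Odc1 per 100 TPM of the antizymes was at 9.41 and 9.37 TPM in untreated, 43.6 and 38.5 TPM in LPS and 47.5 and 47.8 TPM in Met + LPS libraries. The 3 groups did not overlap in either ratio. The rise of the first ratio lay mainly between LPS and Met + LPS, and that of the second between untreated and LPS. With 2 libraries against 2, a two-sided exact permutation test cannot give a p below 0.333, so the ratios are given without a test.

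**Figure D3:**
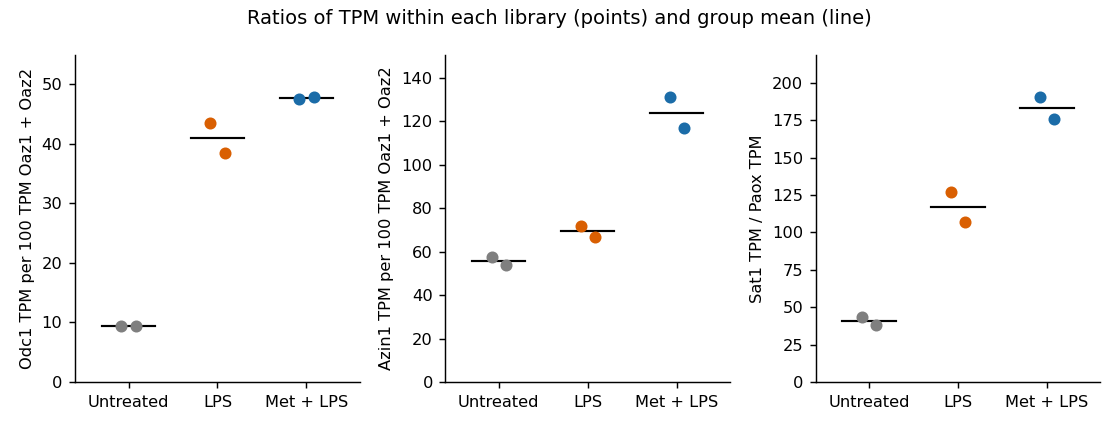
Ratios of TPM within each library (points) and their group means (lines), with y axes that start at 0: Odc1 per 100 TPM of Oaz1 and Oaz2 (left), Azin1 per 100 TPM of Oaz1 and Oaz2 (middle) and Sat1 over Paox (right). Such ratios are the same on any scaling of the libraries. The Odc1 ratio steps up with LPS from 9.39 to 41.0, the Azin1 ratio with metformin from 69.5 to 124, and the Sat1 to Paox ratio at both steps.

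Of the catabolic genes, Sat1 (ENSMUSG00000025283, chromosome X, 155213132 to 155216449, minus strand) encodes spermidine/spermine N1-acetyltransferase, the rate-limiting step of polyamine breakdown and export. Its level was 370 and 354 TPM in untreated, 350 and 347 TPM in LPS and 503 and 466 TPM in Met + LPS libraries. Both Met + LPS libraries were the highest, and the LPS libraries lay just below the untreated ones. The log2 fold change with metformin was 0.47 (SE 0.04, adjusted p = 3.0e-04 in limma, 0.42 to 0.53 without any one library), at the 89.6th percentile of all genes, and 0.49 after rescaling. With LPS alone it was -0.05 (SE 0.04, adjusted p = 0.292, 95% interval from -0.16 to 0.05) as deposited and 0.48 (adjusted p = 1.0e-04) after rescaling. The deposited level pools all annotated isoforms over 2774 exonic bases, so the ratio of its coding to its other splice forms is not seen.

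The 250 bases upstream of Sat1 are shown because, among the genes with a promoter sequence, it rose most with metformin. They lie at chrX:155216450-155216699 of GRCm38.p6 and are printed from 5′ to 3′ along the minus strand, with GC boxes in capitals.
Sat1: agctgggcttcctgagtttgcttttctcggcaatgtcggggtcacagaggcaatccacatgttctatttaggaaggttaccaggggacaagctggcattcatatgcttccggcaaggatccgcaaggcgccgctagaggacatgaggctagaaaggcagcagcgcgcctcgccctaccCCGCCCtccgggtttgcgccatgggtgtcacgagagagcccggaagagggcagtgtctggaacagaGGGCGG

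Paox (ENSMUSG00000025464, chromosome 7, 140115799 to 140137224) encodes the peroxisomal oxidase that turns acetylated polyamines back into spermidine and putrescine. It was at 8.58 and 9.25 TPM in untreated, 2.76 and 3.24 TPM in LPS and 2.64 and 2.65 TPM in Met + LPS libraries. All 4 LPS-stimulated libraries lay far below both untreated ones. The log2 fold change to LPS was -1.31 (SE 0.09, adjusted p = 1.9e-05 in limma), at the 10.8th percentile of all genes. It was -0.86 after rescaling and -1.55 with voom, which adds no pseudocount to TPM. With metformin it was -0.13 (SE 0.09, adjusted p = 0.296, 95% interval from -0.36 to 0.10). Of its 31-base words 69.7% are its own, and most of the others are shared with Gm19680. The annotated span of Paox overlaps that of Echs1 on the other strand by 678 bases, and Echs1 went from 22.5 and 22.7 TPM to 11.8 and 11.7 TPM with LPS. How much of this overlap is exonic was not examined. Since it is not stated whether the counting used strand, any reads of the 2 genes in exons of the overlap cannot be told apart.

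Within a library, the ratio of Sat1 to Paox TPM was 43.1 and 38.3 in untreated, 127 and 107 in LPS and 190 and 176 in Met + LPS libraries. The groups did not overlap. The summed TPM of the catabolic genes was 371 ± 10.8 in untreated, 351 ± 1.58 in LPS and 487 ± 26.1 in Met + LPS BMDMs (SD, n = 2), nearly all of it Sat1. For the synthesis genes the sum was 126 ± 3.34, 176 ± 4.62 and 189 ± 7.05 TPM, and for the antizymes 328 ± 10.3, 235 ± 10.8 and 201 ± 8.45 TPM (SD, n = 2 each), on the scale as deposited.

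Set against untreated BMDMs, the Met + LPS libraries combine both steps. In limma 4 genes rose and 4 fell, against 75.1% of all tested genes called, 16.3% higher and 58.8% lower. Odc1 was at 3.11 times its untreated mean, Azin1 was higher by a log2 fold change of 0.44, Sat1 by 0.42 and Sms by 0.30, and Paox (-1.44), Oaz2 (-0.85), Oaz1 (-0.69) and Amd1 (-0.37) were lower. Srm did not pass, at -0.04 (SE 0.06, adjusted p = 0.571), and was the only one of the 9 whose libraries overlapped, as 90.7% of all genes did not. None of the 9 passed the cut-off of 2 on the absolute log2 fold change, which 5.35% of all genes did, while after rescaling Odc1 did so at 2.14, with 5.24% of all genes. After rescaling 5 genes were called higher, Srm among them at 0.50, and Oaz2 (-0.32) and Paox (-0.98) were called lower, against 63% of all genes, 33.8% higher and 29.2% lower. Amd1 then turned to 0.16 (adjusted p = 0.0283) and Oaz1, at -0.14 (adjusted p = 0.0479), no longer passed.

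The supply of precursors, the transporters and the hypusine branch were followed in a wider list of 27 genes, of which 22 passed the filter. Oaz3, Amd2, Agmat, Arg1 and Slc12a8 did not, and Arg1, the arginase of alternatively activated macrophages, was at most 0.152 TPM. With LPS, 5 of the 22 rose and 11 fell (median log2 fold change -0.33), against 16.2% of all genes higher and 60.1% lower. After rescaling 9 rose and 4 fell (median 0.18), against 31% and 27.3%. With metformin, 3 rose and 5 fell on either scale (median -0.22 as deposited), against 14.5% and 18% of all genes as deposited and 15.9% and 17.2% after rescaling. Without any one library, 3 genes were still called higher with metformin but only between 0 and 2 lower. Against untreated BMDMs the Met + LPS libraries had 4 genes higher and 16 lower, against 16.3% and 58.8% of all genes, or 8 and 6 after rescaling, against 33.8% and 29.2%.

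Of the 6 tested transport genes, 4 rose and 2 fell with LPS, against 76.3% of all genes called. After rescaling 4 rose and 1 fell, against 58.3%, since Slc18b1 no longer passed (adjusted p = 0.0246). With metformin 2 rose and 1 fell, against 32.6%. Slc7a2, a carrier of arginine and other cationic amino acids, was at 3.41 and 2.70 TPM in untreated, 105 and 102 TPM in LPS and 75.8 and 73.8 TPM in Met + LPS libraries. It rose by a log2 fold change of 4.70 with LPS and fell by 0.47 with metformin (adjusted p = 3.6e-08 and 0.00387 in limma). Slc7a1, a second carrier of cationic amino acids, was at 18.9 and 19.1 TPM in untreated, 27.5 and 26.7 TPM in LPS and 87.7 and 87.9 TPM in Met + LPS libraries. Its rise of 1.66 with metformin (adjusted p = 4.4e-06) followed a rise of 0.49 with LPS, so the carriers moved in opposite directions with metformin. Slc3a2, the heavy chain of several amino acid transporters that has also been linked to polyamine export, was at 329 and 319, 424 and 419, and 783 and 772 TPM, a log2 fold change with metformin of 0.88 (adjusted p = 9.8e-06). Atp13a2, a lysosomal polyamine exporter, fell by 1.38 on the log2 scale with LPS (adjusted p = 2.2e-06), from 263 and 272 TPM to 98.3 and 107 TPM, and was at 98.2 and 89.2 TPM in Met + LPS libraries.

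**Figure D4:**
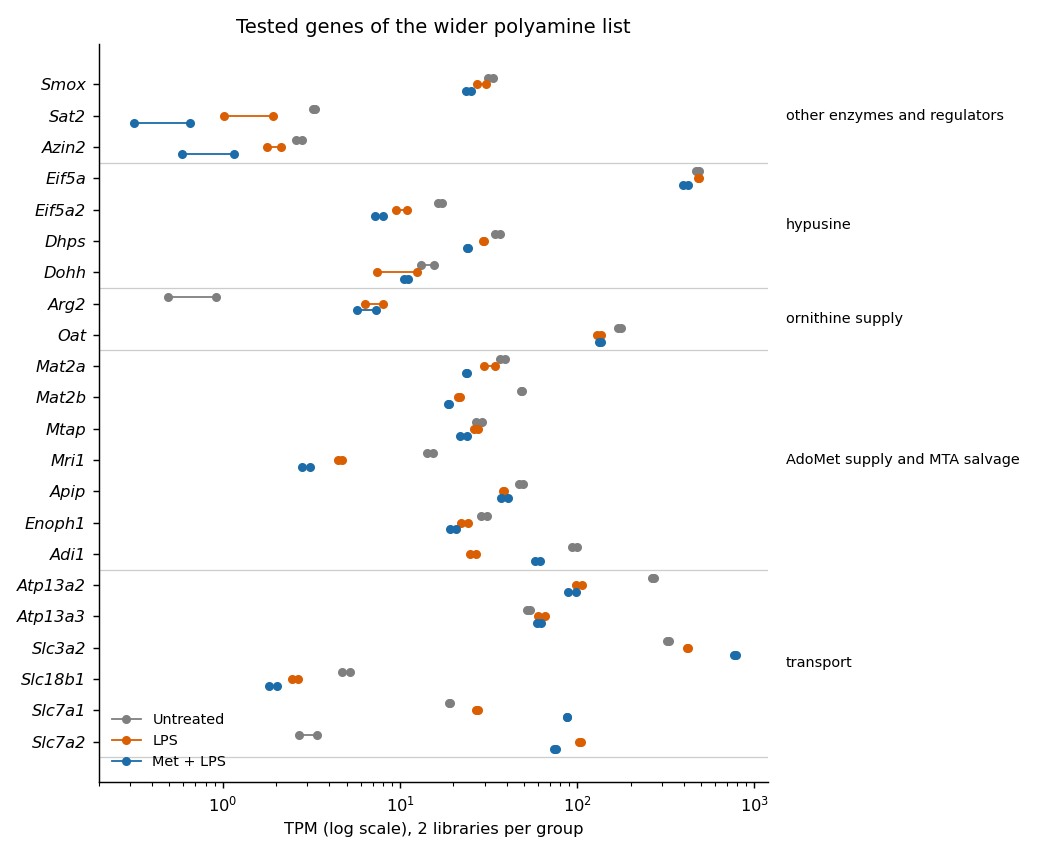
TPM on a log scale (x axis) of the 22 tested genes of the wider polyamine list, as pairs of points joined by a line for the 2 libraries of each group and sorted by role. Slc7a2 and Arg2 lie far to the right with LPS, Slc7a1 and Slc3a2 move further right in Met + LPS, and Adi1 falls with LPS and lies between the other groups in Met + LPS. Small shifts between untreated and LPS libraries depend on the scaling.

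Of the 2 tested genes that supply ornithine or use it, Arg2, the mitochondrial arginase, rose from 0.921 and 0.489 TPM to 8.00 and 6.33 TPM with LPS and was at 5.74 and 7.36 TPM in Met + LPS libraries (log2 fold change with LPS 2.26, adjusted p = 2.9e-05 in limma). The untreated values of Arg2 rested on 10 and 5 recovered reads. Oat, ornithine aminotransferase, fell by 0.38 on the log2 scale with LPS in TPM as deposited and stood at 0.15 after rescaling (adjusted p = 0.0118). Methionine salvage recycles the methylthioadenosine that spermidine and spermine synthesis release, and 5 of the 7 genes of this branch and of S-adenosylmethionine supply fell with LPS, against 60.1% of all genes called lower. After rescaling 3 of the 7 fell and 1 rose, against 27.3% lower and 31% higher. Mat2b, the regulatory subunit of S-adenosylmethionine synthetase, was at 48.5 and 49.0 TPM in untreated and 21.1 and 21.8 TPM in LPS libraries, a log2 fold change of -1.15 (adjusted p = 1.1e-06) and -0.63 after rescaling. Mat2a, the catalytic subunit, fell by 0.41 on the log2 scale with metformin (adjusted p = 0.00417). Adi1, the dioxygenase near the end of the salvage route, went from 93.8 and 99.3 TPM to 27.0 and 24.7 TPM with LPS and was at 61.9 and 58.1 TPM in Met + LPS libraries. Its log2 fold changes were -1.86 and 1.19 (adjusted p = 5.2e-07 and 2.7e-05). Mri1, the isomerase of the same route, fell at both steps, with log2 fold changes of -1.49 and -0.50 (adjusted p = 6.2e-06 and 0.00311).

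In the hypusine branch, which modifies a lysine of the translation factor eIF5A with a part of spermidine, Eif5a was at 467 and 488 TPM in untreated, 482 and 489 TPM in LPS and 395 and 421 TPM in Met + LPS libraries. Of the 4 genes of this branch, 2 fell with LPS as deposited (Dhps and Eif5a2), against 60.1% of all genes. After rescaling 2 rose (Dhps and Eif5a) and 0 fell, against 31% of all genes higher and 27.3% lower. Dhps thus turned from -0.25 to 0.27. Eif5a2, a paralogue of Eif5a, had -0.67 with LPS as deposited and -0.17 (adjusted p = 0.106) after rescaling. With metformin 2 fell, against 18%. Eif5a fell by 0.25 on the log2 scale with metformin (adjusted p = 0.00308 in limma), and Dhps, which starts the modification, fell by 0.29 (adjusted p = 0.00268). Among the other enzymes and regulators, Smox, the spermine oxidase, was at 31.3 and 33.5 TPM in untreated, 27.3 and 30.5 TPM in LPS and 25.0 and 23.5 TPM in Met + LPS libraries, and passed in neither step as deposited. Its log2 fold change with LPS was -0.16 and turned to 0.35 (adjusted p = 0.00352) after rescaling. Sat2, a paralogue of Sat1, was the only one of the 3 tested genes of this group called with LPS as deposited, against 60.1% of all genes lower. It was at -0.82 (adjusted p = 0.00884 in limma), or -0.45 and no longer called after rescaling, and rested on 4 to 35 reads per library. After rescaling Smox was the only one called, against 31% of all genes higher.

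Myc, a known transcriptional activator of Odc1, was at 18.5 and 17.2 TPM in untreated, 12.4 and 12.4 TPM in LPS and 36.0 and 32.7 TPM in Met + LPS libraries. It rose by a log2 fold change of 1.40 with metformin (SE 0.06, adjusted p = 2.1e-05 in limma), while with LPS it had -0.49, or 0.01 after rescaling (adjusted p = 0.891). The order of the groups thus differed between Myc and Odc1. The tested genes whose log2(TPM + 1) profiles over the 6 libraries lay nearest to that of Odc1, by Euclidean distance after centring, were Sp110 (distance 0.129), Fam129a (0.137), Slamf7 (0.144), Ptpn12 (0.149) and Ptpn2 (0.150). Their log2 fold changes with LPS lay between 1.56 and 1.70, and they differed between Met + LPS and LPS by between -0.09 and 0.02.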

How the data were processed

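RNA-seq of 6 BMDM libraries in 3 groups of 2 was analysed. The authors deposited gene values as TPM, without pooling libraries. Per the labels and the paper's methods, single-end reads were mapped with STAR 2.6.1d (genome GRCm38) and counted per gene with featureCounts (Subread 1.6.3; SAMtools 1.9 is also listed). How counts became TPM is not given in the sources used here. TPM times the exon length of GENCODE vM21 (54495 of 54532 genes matched) was a whole number of reads, within 0.02, for 96.1% to 96.3% of values above 0.

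The 12755 genes that reached 1 TPM in 2 or more libraries entered a limma fit (version 3.58.1, R 4.3.3) of log2(TPM + 1), with a trended eBayes prior, all 6 libraries in 1 fit (3 residual degrees of freedom) and Benjamini-Hochberg adjustment over all tested genes. Genes were called at an adjusted p under 0.01. Fold changes on this scale understate changes of low genes. Intervals are 95%. With 2 libraries a group, the spread is borrowed across genes and may be technical. Rescaling divided each library by its median ratio to the geometric mean over genes. Reads that genes share were judged from 31-base words of their exons. Promoters came from RefSeq (GRCm38.p6). The fit was tested on simulated reads of 12750 genes with a dispersion (spread beyond sampling) of 0.005. In the simulated LPS libraries 200 genes were changed, of which 146 were called, 0 with the wrong sign. It also called 9 unchanged genes. The share called was 57.9% at a fold of 0.5, 64.7% at 2, 73.3% at 0.25 and 100% at 4. No shift of most genes, such as that seen with LPS, was simulated. These shares therefore need not hold for the real libraries, and the signs do not bear on directions that rescaling turned. Summaries used Python 3.11.15 with numpy 2.4.6, pandas 2.3.3 and matplotlib 3.10.9.

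The 9 genes, the wider list and the markers were chosen with earlier results of these data known. All 9 genes are described; of the wider list, counts are given, any listed gene could be named, and the called gene with the largest change in each branch is among those named; Myc and the 5 genes nearest to Odc1 are named by rule. Each result was recomputed with the pseudocount at 0.1, with the filter dropped or raised to 5 TPM, with rescaling, on the 4 libraries compared alone, with a replicate block, without the eBayes trend, at an adjusted p under 0.05, with the study's fold cut-offs (log2 of 2 for LPS and 0.7 for metformin), by voom on recovered reads and without each library in turn.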

Additional observations from a re-analysis of the deposited data

How the results depend on the processing

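Of the recomputed log2 fold changes of the 9 genes, 366 kept direction and call, 46 lost the call, 8 gained it and 12 changed sign. The cut-offs, the filter, the trend, the replicate block and the fit of 4 libraries leave a fold change as it is. Under those settings the direction was fixed in advance, so the pooled count is no measure of how firm directions are. With rescaling alone, 16 kept direction and call, 8 changed sign, 2 lost the call and 1 gained it. With LPS, rescaling turned Amd1 to 0.02, Srm to 0.17, Azin1 to 0.37, Oaz1 to 0.06 and Sat1 to 0.48. For Met + LPS vs. untreated it turned Amd1 to 0.16 and Srm to 0.50, and without any one library Srm lay between -0.10 and 0.02, at 0.01 without untreated replicate 2 and 0.02 without Met + LPS replicate 1. Odc1 with metformin, near 0, went to 0.01 with rescaling and lay between -0.05 and 0.04 without any one library, at 0.03 without LPS replicate 1 and 0.04 without Met + LPS replicate 1.

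With metformin, the 4 genes called became 2, Azin1 and Sat1, without any one library (2 to 2), in the fit of only the 4 libraries compared and without the trend. The wider list went from 8 genes to 4 without the filter, 5 in the fit of 4 libraries, 5 without the trend, 15 at an adjusted p under 0.05 and 3 to 5 without any one library, and all tested genes from 4156 to 2662 in the fit of 4 libraries and 2561 to 2759 without any one library. Over all tested genes the calls with metformin were 2792 of 23749 without the filter. They were 3193 of 12755 without the trend and 6166 of 12755 at an adjusted p under 0.05. Fewer libraries leave fewer degrees of freedom. The other causes were not tested. With the study's fold cut-offs and without rescaling, 0 of the 9 genes were called with LPS, 0 with metformin and 0 for Met + LPS vs. untreated. Without a fold cut-off 7, 4 and 8 were called in limma. The voom fold changes also gave 0, but that fit scaled libraries by total reads and so was not rescaled either. Over all genes the 9734, 4156 and 9576 calls became 776, 1056 and 682. The wider list kept 2, 3 and 3. No fold change of the 9 reached the cut-offs of 2 and 0.7 as deposited, and Odc1 did after rescaling with LPS (2.13) and for Met + LPS vs. untreated (2.14).

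With a replicate block, 5 genes rather than 4 were called with metformin, Oaz1 being added at -0.22 (adjusted p = 0.00261 in limma), and no other call of the 9 changed. Over all 12755 tested genes the calls with metformin then went from 4156 to 3956. Deviations of same-numbered libraries correlated at -0.004, 0.028 and 0.006 over 12755 genes. Such values over all genes cannot show whether these libraries shared a mouse or a culture. Depth limits Paox most (98 to 325 reads).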
